A study of Mus musculus with 2 samples.

Results

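The genes described here are 32 enzymes, transporters and regulators of glycolysis and of lactate and pyruvate handling, of the 32285 genes counted in sorted cells of E14 mouse embryos. They were listed by symbol from what the enzymes do, with no measured value as a filter but with earlier results of these data known. All 32 were found in the count table. Cells carried a Myf5-Cre allele, in which the promoter of Myf5 drives Cre recombinase, and a Rosa26-LSL-tdTomato (tdT) reporter that Cre switches on, so that cells with a history of Myf5 promoter activity glow red and could be sorted. The floxed gene was Srsf2, which encodes a serine and arginine rich splicing factor, and 1 library of tdT+ cells was labelled SRSF2 f/f and 1 was labelled SRSF2 f/w (floxed and wild-type allele), the genotype that served as the control. Trunks and limbs without head and viscera had been digested to single cells, and each library is described as 1 embryo sample, so that no difference between the libraries has a replicate check.

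Srsf2 was 219 CPM (its share of all unique molecular identifiers, UMIs, which count captured transcripts, scaled to an equal total per library) in the library labelled f/f and 153 CPM in the library labelled f/w, and it was lower in the f/w-labelled library in 13 of 13 cell classes. The level therefore goes against the labels, and so do other records of the study: the summary deposited with the f/f-labelled sample is named for the wild type, the one with the f/w-labelled sample for the knockout, and a quality panel of the study heads the libraries the same way. The study also reports a smaller share of skeletal muscle cells in its mutant than in its control. Here myogenic cells, classed by marker genes (below), were 18.4% of the f/f-labelled and 1.05% of the f/w-labelled library, which also goes against the labels. The study reports larger proportions of neural, endothelial and immune cells in its mutant. Here these classes held 677, 384 and 115 cells in the f/f-labelled and 980, 874 and 524 in the f/w-labelled library, again against the labels. The order of the cell numbers kept by the study, larger in the mutant, is that of the labels. Reads came from the 3′ end of transcripts, and whether they lie in the deleted stretch of Srsf2 is not given in the sources used here, so the level is no full check of either genotype. The libraries are named by their deposited labels throughout, and every direction between them turns round if the labels were swapped.

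Glycolysis splits glucose into pyruvate in a chain of cytosolic enzymes. Glucose enters through transporters of the Slc2a family, is trapped by hexokinases, and is committed by phosphofructokinase, whose activity is set in part by the product of the Pfkfb enzymes. Pyruvate is then turned into lactate by lactate dehydrogenase and carried out by the Slc16a transporters, or enters mitochondria for pyruvate dehydrogenase, which the Pdk kinases switch off. Several steps have a muscle isoform (Pgam2, Eno3, Pfkm) beside a form found in most cells (Pgam1, Eno1, Pfkl), and adult skeletal muscle is known for its reliance on the muscle forms.

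The start regions of Pgam2 and Eno3 are shown because these 2 muscle isoforms had the largest rises of the set from Pax7 cells to myocytes (below). Each line gives the 250 bases before the RefSeq start in build GRCm38.p6, in the direction of the gene. Pgam2 lies on the minus strand (gene at chr11:5801640-5803733, window chr11:5803797-5804046) and Eno3 on the plus strand (gene at chr11:70657202-70662513, window chr11:70656926-70657175). Capitals mark the E-box CAGCTG, the type that myogenic bHLH factors bind, and a match to the MEF2 element.
Pgam2: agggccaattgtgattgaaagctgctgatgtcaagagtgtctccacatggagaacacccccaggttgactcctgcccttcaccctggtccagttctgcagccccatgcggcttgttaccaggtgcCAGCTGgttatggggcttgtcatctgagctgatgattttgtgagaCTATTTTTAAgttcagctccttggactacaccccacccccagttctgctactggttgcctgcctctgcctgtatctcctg
Eno3: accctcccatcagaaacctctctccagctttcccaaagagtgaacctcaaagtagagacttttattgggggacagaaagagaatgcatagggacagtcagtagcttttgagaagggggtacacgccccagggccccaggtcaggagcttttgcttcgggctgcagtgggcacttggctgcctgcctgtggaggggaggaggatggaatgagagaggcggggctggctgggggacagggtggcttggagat
In the Pgam2 window the CAGCTG began 125 bases and the MEF2 match 80 bases before the start, and the Eno3 window held neither. Searched on both strands, CAGCTG was in 13.0% of all 32851 such windows and in 5 of 47 windows (10.6%) of the 31 genes of the set that have one. The MEF2 match was in 2.92% of all windows and in 1 of the 47, that of Pgam2. ACGTG, the core of the element that hypoxia-inducible factors bind, was in 16.6% of all windows and in 19 of the 47 (40.4%), from 15 genes that include Slc2a1, Hk2, Pgk1, Ldha and Slc16a3. These matches describe letters, not bound sites.

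After limits on UMIs, genes and mitochondrial share, 12523 cells of the f/f-labelled and 10345 of the f/w-labelled library were kept (medians of 10751 and 9480 UMIs). Cells were placed in 13 classes by limits on UMIs of marker genes, which left out 1944 cells that reached more than 1 class and 3731 that reached none. A class name stands for those limits. Markers that the limits did not use gave 32 checks, with Ttn, Mylpf, Myh3 and Acta1 read in each myogenic class against the non-muscle classes only. In 27 of the 32 the marker was above every class it was compared with. The exceptions were Mylpf, Myh3 and Acta1 in Pax7 cells, Col1a1 in the mesenchymal class and Cspg4 in the pericyte class. Col1a1 was higher in the osteoblast class and Cspg4 in the chondrocyte class. Ttn was 68.8 CPM in Pax7 cells, 389 CPM in intermediate cells and 1200 CPM in myocytes, so these checks do not tell the myogenic classes apart. Myogenic cells were 2301 (18.4%) of the f/f-labelled and 109 (1.05%) of the f/w-labelled library, split into Pax7 cells (1031 and 36), intermediate cells (648 and 36) and myocytes with at least 10 Myog UMIs and no Pax7 (622 and 37). The libraries shared 50 barcode sequences among kept cells, of which 8 were myogenic in the f/f-labelled and 1 in the f/w-labelled library.

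The 32 genes took a similar share of all UMIs in both libraries, 0.406% in the f/f-labelled and 0.404% in the f/w-labelled, but the share differed between classes. It was highest in the immune class, at 0.595% (95% exact binomial interval 0.584 to 0.607) in the f/f-labelled and 0.649% (0.644 to 0.655) in the f/w-labelled library. In the chondrocyte class it was 0.4999% and 0.469%, and in myocytes 0.494% and 0.621%, the second highest value of the f/w-labelled library. Mesenchymal, Schwann and neuron cells lay between 0.275% and 0.328% in both libraries. Within the myogenic classes the share rose in order in both libraries, from 0.452% in Pax7 cells through 0.467% to 0.494% in myocytes of the f/f-labelled library, and from 0.530% through 0.552% to 0.621% in the f/w-labelled one. From Pax7 cells to myocytes Gapdh alone went from 1698 to 2229 CPM and from 1969 to 2862 CPM. That was more than the rise of the whole set in the f/f-labelled library and most of it in the f/w-labelled one. The lowest value, in the erythroid class (0.130% and 0.0767%), stood beside haemoglobin genes at 684897 and 815312 CPM, so that little of the total was left for other genes. All intervals here cover counting error only.

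**Figure D1:**
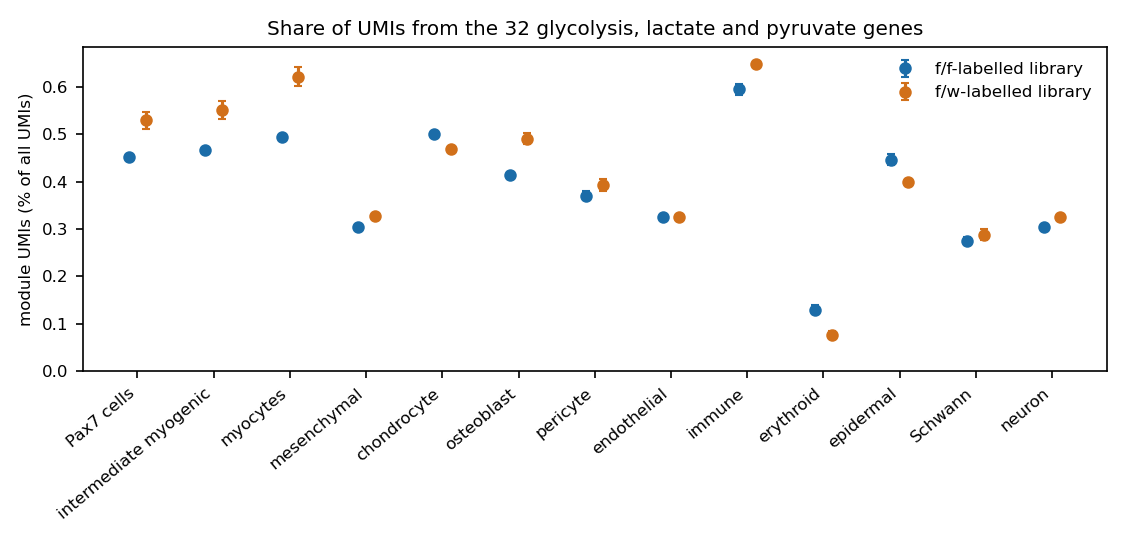
Share of UMIs from the 32 genes (y axis, percent of all UMIs) in each cell class (x axis) for the f/f-labelled (blue) and f/w-labelled (orange) library, with exact 95% binomial intervals of the counts. The immune class is highest in both libraries and the erythroid class is lowest. The share is higher in the f/w-labelled library in 9 of 13 classes, all myogenic classes among them.

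Each class was compared with the mean of the other classes in a single edgeR quasi-likelihood fit over 26 sums of UMIs (13 classes in each library), with the library as a term and 12 residual degrees of freedom. Of the 32 genes 31 were tested (Pfkfb2 had 292 UMIs in all and failed the filter), and a false discovery rate (FDR) under 0.05 was the limit of a call. The chondrocyte class had the most genes called higher, 19, with 3 called lower, against a background of 25.4% of all 14088 genes higher and 12.5% lower. In the immune class 17 were higher and 2 lower (background 32.7% and 18.9%), and in the osteoblast class 13 were higher and 0 lower (17% and 6.84%). Neurons stood at the other end with 8 higher and 18 lower (29.6% and 19.8%), and so did the endothelial class with 6 and 14 (23.6% and 11.8%) and the Schwann class with 3 and 11 (14.5% and 9.55%). Myocytes had 10 higher and 14 lower (23.7% and 20.5%), Pax7 cells 7 and 9 (16% and 15.8%), and intermediate cells 8 and 9 (18.1% and 15.9%). The median log2 difference over the 27 tested genes with UMIs in every class was 0.69 in the chondrocyte class, 0.55 in the immune class, -0.60 in myocytes and -0.61 in neurons, where the medians of all 10058 such genes lay between -0.05 and 0.07. The remaining classes had 3 higher and 8 lower (mesenchymal, 25.9% and 11.4%), 5 and 3 (pericyte, 13% and 3.55%), 9 and 4 (epidermal, 18.7% and 9.22%) and 1 and 1 (erythroid, 2.47% and 1.86%).

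**Figure D2:**
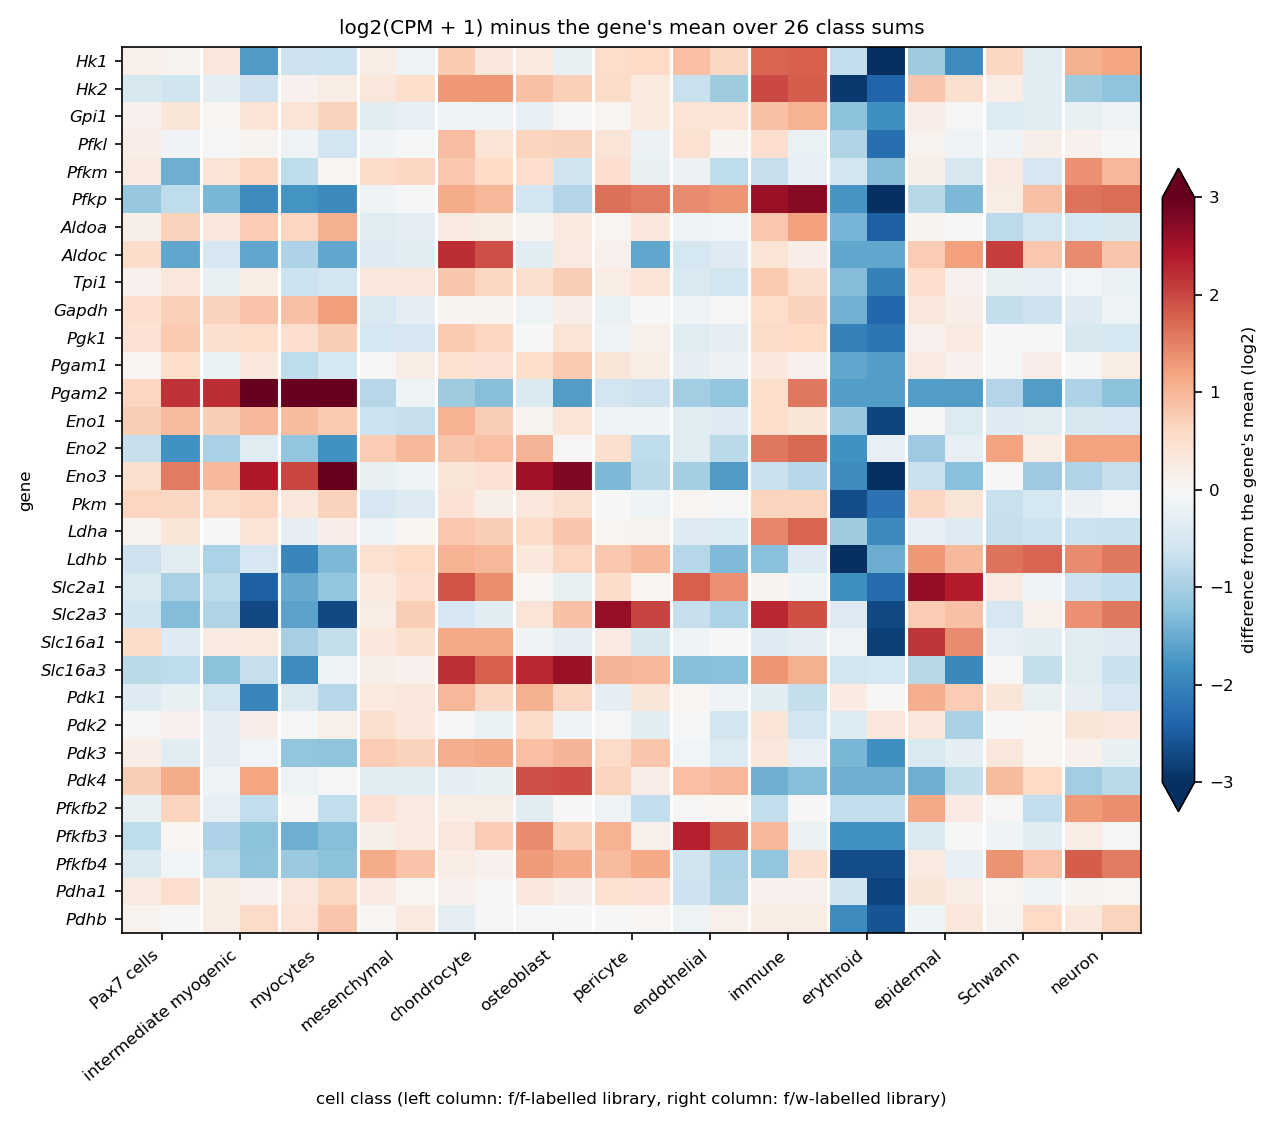
Each of the 32 genes (rows) in the 13 classes (x axis, f/f-labelled library in the left and f/w-labelled in the right column of each pair), coloured by log2(CPM + 1) minus the mean of the gene over the 26 sums, clipped at 3 in either direction. Pgam2 and Eno3 are red in the myogenic classes, Eno3 also in the osteoblast class, and most rows are blue in the erythroid class.

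RNA of the genes of glucose uptake and trapping was highest in non-muscle classes. Slc2a1, the widespread glucose carrier, was 152 CPM (f/f-labelled) and 124 CPM (f/w-labelled) in the epidermal class, a log2 difference from the other classes of 2.72 ± 0.13 (SE; edgeR FDR under the limit), and it was also called higher in the chondrocyte (1.71 ± 0.12) and endothelial (1.62 ± 0.12) classes. It was called lower in each myogenic class, with 7.58 and 10.0 CPM in myocytes. Slc2a3, a carrier known from neurons, was highest in the pericyte class (38.5 and 25.6 CPM) and close to it in the immune class (30.3 and 23.5 CPM). Hk1, the hexokinase of most tissues, and Hk2, that of muscle and growing cells, were both highest in the immune class. Hk2 was 144 and 128 CPM there, 89.6 and 89.3 CPM in the chondrocyte class and 38.9 and 41.8 CPM in myocytes.

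At the phosphofructokinase step the isoforms went to different classes. Pfkp, the platelet form, was 60.0 and 66.3 CPM in the immune class (log2 difference 3.22 ± 0.14) and only 1.90 and 1.67 CPM in myocytes (-2.26 ± 0.38). Pfkl, the liver form, was called higher in the osteoblast (0.70 ± 0.16) and chondrocyte (0.65 ± 0.12) classes. Pfkm, the muscle form, was not high in these embryonic muscle cells: it was 3.35 CPM (30 UMIs) and 6.69 CPM (4 UMIs) in myocytes, called lower than in the other classes (-0.95 ± 0.33), and 18.04 and 13.6 CPM in neurons, called higher (0.87 ± 0.20). Of the Pfkfb enzymes, which make and break the activator of phosphofructokinase, Pfkfb3 was highest in the endothelial class (52.1 and 37.2 CPM, log2 difference 2.36 ± 0.17) and called lower in all 3 myogenic classes. Pfkfb4 was highest in neurons (21.1 and 17.6 CPM), and Pfkfb2 was at most 3.34 CPM in any class of either library.

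In the lower part of the chain several genes were highest in myocytes or close to it, but Tpi1 (-0.60 ± 0.13) and Pgam1 (-0.64 ± 0.12) were called lower there. By the mean of the libraries Pgk1, Eno1 and Tpi1 were highest in the chondrocyte class, Pgam1 in the osteoblast class and Pkm in the immune class. Gapdh, which makes the first high-energy phosphate of the chain, reached its highest level in myocytes, 2229 and 2862 CPM, a log2 difference of 1.21 ± 0.10, and was called lower in the mesenchymal, pericyte, Schwann and neuron classes. Aldoa, the muscle and general aldolase, was highest in the immune class (608 and 809 CPM, 1.20 ± 0.11) and next in myocytes (541 and 722 CPM, 0.98 ± 0.11). Pgk1 and Eno1, which act after Gapdh, were called higher in each of the 3 myogenic classes, the chondrocyte and the immune class. Aldoc, the brain aldolase, was 12.9 and 10.4 CPM in the chondrocyte class and 0.558 CPM (5 UMIs) and 0 in myocytes. Eno2, the neuronal enolase, was 7.08 and 7.14 CPM in neurons but 9.50 and 10.6 CPM in the immune class.

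Pgam2, the muscle phosphoglycerate mutase, was 70.8 and 81.9 CPM in myocytes, 13.7 and 45.4 CPM in intermediate cells and 3.99 and 13.2 CPM in Pax7 cells. Outside muscle it was at most 1.91 CPM, except in the immune class, with 3.56 CPM (6 UMIs) in the f/f-labelled and 8.43 CPM (66 UMIs) in the f/w-labelled library, where edgeR also called it higher than in the other classes. In the f/w-labelled immune class 35 of 524 cells (6.68%, exact 95% interval 4.70 to 9.17) held a Pgam2 UMI, against 0.631% of 2220 mesenchymal cells of that library, at median depths of 14150 and 9103 UMIs. With each cell thinned to 2000 UMIs the shares were 2.92% (15 of 514 cells) and 0.136%. Mylpf, a fast myosin light chain, was 7.66 CPM in those immune cells and 1279 CPM in the myocytes of that library.

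Eno3, the muscle enolase, was highest in 2 classes whose levels overlapped. It was 43.4 and 98.6 CPM in myocytes (log2 difference 3.02 ± 0.24) and 61.9 and 76.3 CPM in the osteoblast class (3.12 ± 0.23), where Pgam2 had 4 UMIs in the f/f-labelled and 0 in the f/w-labelled library. Among osteoblast-class cells 76 of 182 (41.8%) and 43 of 94 (45.7%) held an Eno3 UMI, against 7.51% and 7.21% of mesenchymal cells. Chondrocyte-class cells were at 13.2 and 13.9 CPM. On all cells the osteoblast class was the higher of the 2 in the f/f-labelled library and myocytes in the f/w-labelled one. Of the 59 Eno3 UMIs of f/w-labelled myocytes 35 came from 3 cells. Without the 3 cells with the most Eno3 in each class and library myocytes were at 39.0 and 44.3 CPM and the osteoblast class at 55.0 and 62.9 CPM. That takes out 3 of 37 f/w-labelled myocytes but 3 of 94 osteoblast-class cells, so it does not settle the order.

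Genes of lactate handling were highest outside muscle. Ldha, the dehydrogenase subunit that favours lactate, was 1116 and 1365 CPM in the immune class (1.82 ± 0.10) and called higher in the chondrocyte (0.74 ± 0.10) and osteoblast (0.72 ± 0.11) classes. In myocytes it was 340 and 470 CPM and not called. Ldhb, the heart-type subunit, was highest in the Schwann class (163 and 179 CPM) and in neurons (141 and 159 CPM), and lowest outside the erythroid class in myocytes (12.7 and 20.1 CPM, -1.96 ± 0.25). Slc16a3, the lactate exporter of glycolytic cells, was highest in the osteoblast class (47.7 and 60.1 CPM, 2.87 ± 0.18), followed by the chondrocyte class (44.9 and 34.3 CPM), and Slc16a1, the widespread lactate carrier, in the epidermal class (90.5 and 54.4 CPM, 1.91 ± 0.17).

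Among the kinases that restrain pyruvate dehydrogenase, Pdk4 was highest in the osteoblast class (9.47 and 9.69 CPM). By the mean of the libraries Pax7 cells came next (3.56 and 4.94 CPM, on 58 and 3 UMIs). Pdk3 was called higher in the chondrocyte (1.17 ± 0.11), osteoblast (1.04 ± 0.16) and mesenchymal (0.51 ± 0.12) classes and lower in myocytes (-1.35 ± 0.21). Pdk1 was called higher in the epidermal (1.03 ± 0.20), osteoblast (0.94 ± 0.20) and chondrocyte (0.82 ± 0.13) classes and lower in all myogenic classes. It was also called higher in the erythroid class (2.02 ± 0.49), whose sums were mostly haemoglobin and had scaling factors of 0.353 and 0.234 in the fit. By the mean CPM of the libraries Pdk1 was highest in the epidermal class (19.7) and next in the osteoblast class (18.6), with the erythroid class below both. Pdk2, at no more than 4.74 CPM, was called in no class. The subunits of the enzyme itself, Pdha1 and Pdhb, were both highest in myocytes by the mean of the libraries, at 75.3 and 91.9 CPM and at 119 and 159 CPM, with log2 differences of 0.51 ± 0.13 and 0.71 ± 0.11.

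From Pax7 cells, the progenitors of embryonic muscle, to myocytes, the muscle isoforms Pgam2 and Eno3 rose most, Hk2, Pdhb, Gapdh, Aldoa and Gpi1 rose by less, and 7 other genes fell. In the same edgeR fit 7 of 31 tested genes were called higher and 7 lower, where the background over all genes was 13.1% higher and 12.4% lower. The median log2 difference of the 31 genes was -0.60, and that of all genes 0.01. Pgam2 went from 3.99 to 70.8 CPM (65 to 635 UMIs) in the f/f-labelled library and from 13.2 to 81.9 CPM (8 to 49 UMIs) in the f/w-labelled one, a log2 difference of 4.06 ± 0.39 (SE, edgeR FDR 1.91e-08). Both values in myocytes lay above both values in Pax7 cells. All 8 Pgam2 UMIs of f/w-labelled Pax7 cells came from 3 of 36 cells, and the 3 cells with the most held 13.8% of the UMIs in the f/f-labelled ones.

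Eno3 went from 14.5 to 43.4 CPM and from 31.3 to 98.6 CPM (1.96 ± 0.34, FDR 6.99e-05), again without overlap between the classes. Hk2 rose from 25.2 to 38.9 and from 23.1 to 41.8 CPM (0.91 ± 0.19, FDR 0.000799). Pdhb (0.71 ± 0.15), Gapdh (0.69 ± 0.15), Aldoa (0.66 ± 0.17) and Gpi1 (0.53 ± 0.14), the isomerase after hexokinase, were the other genes called higher. With library totals alone instead of the trimmed-mean scaling the median of all genes shifted from 0.01 to -0.20, and Gapdh (0.47), Aldoa (0.43) and Gpi1 (0.31) kept their direction and lost their call. Gpi1 also lost its call without the filter on low counts, with a mitochondrial limit of 5% and in thinned cells.

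The genes that fell were of several steps. Pgam1, the general mutase beside Pgam2, fell by 0.71 ± 0.16 on the log2 scale (220 to 124 and 306 to 145 CPM, FDR 0.00113) and Tpi1 by 0.61 ± 0.16 (217 to 126 and 250 to 134 CPM). Ldhb fell by 1.12 ± 0.30, Slc16a1 by 1.24 ± 0.29, Pdk3 by 1.20 ± 0.24 and Slc2a1 by 0.79 ± 0.27. Aldoc fell by 2.30 ± 0.68 (FDR 0.0124), a value set by the f/f-labelled library (54 to 5 UMIs), since it had no UMI in either class of the f/w-labelled one. Ldhb and Slc2a1 lost their call in cells thinned to 2000 UMIs. Of the 14 called genes 13 had the same direction in both libraries, and for Aldoc the f/w-labelled library gave no ratio.

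The 17 tested genes that did not pass included Ldha (-0.04 ± 0.16), Pkm (0.07 ± 0.16), Pgk1 (0.24 ± 0.14), Eno1 (0.27 ± 0.17) and Pdha1 (0.33 ± 0.18). Pfkm had a log2 difference of -0.76 ± 0.38 (FDR 0.151), and the libraries gave opposite signs. Slc2a3 stood at -1.38 ± 0.55 (FDR 0.0666) and Pdk4 at -1.07 ± 0.45 (FDR 0.0822).

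**Figure D3:**
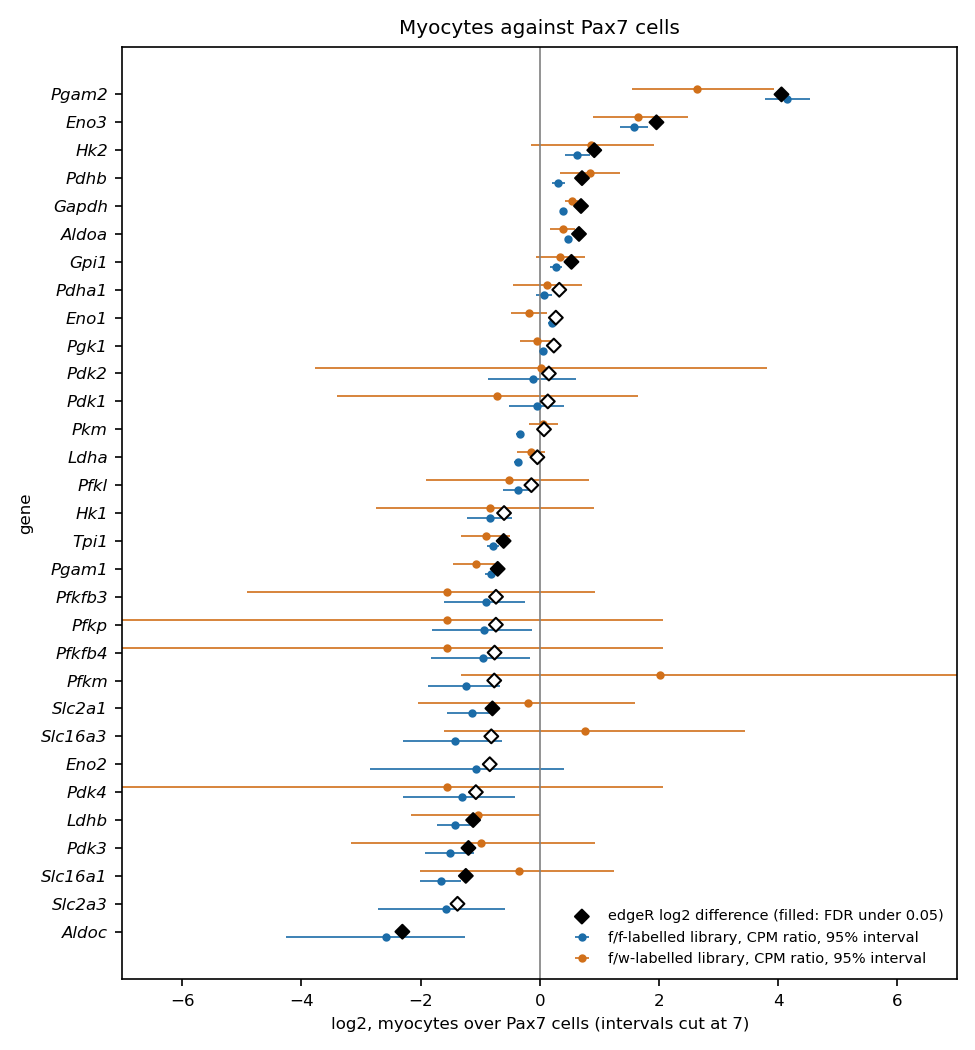
Log2 difference of myocytes over Pax7 cells (x axis) for the 31 tested genes (y axis): edgeR fit of both libraries (diamonds, filled where the FDR is under 0.05) and the CPM ratio in the f/f-labelled (blue) and f/w-labelled (orange) library with exact 95% intervals of the counts, drawn to 7. Pgam2 at 4.06 and Eno3 at 1.96 stand apart at the top, and the f/w-labelled intervals are wide because that library holds 36 Pax7 cells and 37 myocytes.

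The turn to muscle isoforms was measured as the share of an isoform in the UMIs of its enzyme. Such shares rest on how well the 3′ end of each transcript is caught, so they are compared across classes and not read as protein amounts. Over both libraries Pgam2 was 1.90% (exact 95% interval 1.49 to 2.38) of Pgam1 and Pgam2 UMIs in Pax7 cells, 7.60% (6.52 to 8.80) in intermediate cells and 36.3% (34.1 to 38.5) in myocytes. In myocytes it was 36.3% in the f/f-labelled and 36.0% in the f/w-labelled library, and without the 3 cells of each library with the most Pgam2 34.3% (32.1 to 36.7) and 26.5% (18.7 to 35.7). Those cells are 3 of 622 f/f-labelled but 3 of 37 f/w-labelled myocytes, so the loss is unequal by design. In the epidermal class Pgam2 had 0 of 1084 UMIs, which allows a share of up to 0.277% by the floor of 3 counts (exact upper limit 0.340%).

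Eno3 was 5.02% of enolase UMIs in Pax7 cells (4.44 to 5.66), 12.7% in myocytes (11.6 to 13.8) and 25.1% in the osteoblast class (22.7 to 27.7), with 11.8% in f/f-labelled and 25.4% in f/w-labelled myocytes. Without the 3 cells of each library with the most Eno3 these were 10.7% (9.70 to 11.9) and 14.1% (9.26 to 20.3), whose intervals overlap. The loss is again unequal, so the overlap does not show that the libraries are alike. Hk2 was 62.1% (58.3 to 65.7) of Hk1 and Hk2 UMIs in Pax7 cells and 82.0% (78.2 to 85.4) in myocytes, but 93.3% in the epidermal class and 33.1% in neurons. Ldhb went from 7.19% (6.63 to 7.77) to 3.65% (3.05 to 4.33) of lactate dehydrogenase UMIs, against 39.9% in the Schwann class and 37.0% in neurons. Pfkm was 20.4% (17.4 to 23.8) of phosphofructokinase UMIs in Pax7 cells and 13.8% (9.77 to 18.8) in myocytes, with intervals that overlap. Over both libraries, with most UMIs from the f/f-labelled one, the shares of Pgam2, Eno3 and Hk2 were higher in myocytes and no rise was measured for that of Pfkm. In the f/w-labelled library alone the Hk2 intervals overlapped, at 60.9% (38.5 to 80.3) in Pax7 cells and 83.3% (65.3 to 94.4) in myocytes. There the Eno3 intervals of all cells did not overlap. The myocyte share without the 3 top cells overlapped the 8.76% (5.35 to 13.3) of Pax7 cells, from which no cell was taken out. Aldoa made up 96.2% to 100% of aldolase UMIs in every class over both libraries. Among the lactate carriers Slc16a3 was 74.8% in the osteoblast class and 3.83% in the epidermal class, and among the glucose carriers Slc2a3 was 55.0% in neurons, 52.9% in the immune class and 3.58% in the endothelial class.

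Myogenic cells were also ordered by their UMIs of Myog, the transcription factor that marks the onset of differentiation, without regard to class. In the f/f-labelled library the Pgam2 share went from 1.84% at 0 Myog UMIs (957 cells) to 3.64% at 1 to 4 (442 cells), 16.8% at 5 to 19 (524 cells) and 39.9% at 20 or more (378 cells), and no interval overlapped the next. In the f/w-labelled library it was 4.11% (45 cells), 12.9% (14 cells), 27.1% (21 cells) and 34.3% (29 cells), with intervals that overlapped between neighbours. The Eno3 share went from 5.19% through 5.94% and 8.44% to 11.8% in the f/f-labelled library, and stood at 8.06%, 16.1%, 28.8% and 15.6% in the f/w-labelled one. In the third bin of that library 39 of 45 Eno3 UMIs came from 3 of 21 cells, and without the 3 top cells of each bin its Eno3 shares were 5.76%, 1.94%, 6.12% and 12.6% and its Pgam2 shares 0.529%, 3.13%, 7.04% and 23.6%. Such shares are lower by design, since the cells taken out were chosen by their UMIs of the isoform. In the f/f-labelled library the levels of Pgam1 (223, 203, 142 and 127 CPM) and Slc16a1 (30.1, 27.1, 16.4 and 7.77 CPM) went down over the same bins, and those of all 32 genes together went up from 4523 to 4989 CPM. Gapdh alone went from 1687 to 2237 CPM there, a larger rise than that of the whole set.

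**Figure D4:**
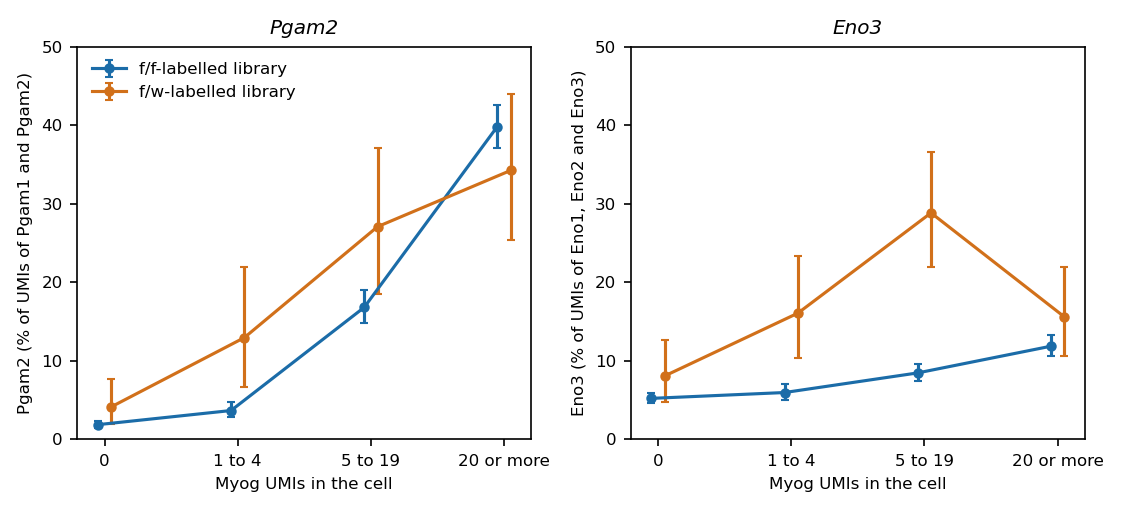
Pgam2 as a percent of Pgam1 and Pgam2 UMIs (left) and Eno3 as a percent of Eno1, Eno2 and Eno3 UMIs (right) in myogenic cells binned by Myog UMIs (x axis), for the f/f-labelled (blue) and f/w-labelled (orange) library with exact 95% binomial intervals. The Pgam2 share rises to 39.9% and 34.3% in the last bin, and the Eno3 share of the f/w-labelled library reads 28.8% in the third, where 3 cells hold 39 of 45 Eno3 UMIs.

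Cycling Pax7 cells, with at least 3 UMIs of Mki67 and Top2a, were set against non-cycling ones, with none, within a library. The limits are on raw UMIs, so that cells of low depth can fall among the non-cycling ones. In the f/f-labelled library (684 and 145 cells) the 32 genes together were 4566 and 4216 CPM, a log2 ratio of 0.12 (exact 95% interval 0.08 to 0.15), where the median over all 6132 counted genes was 0.09. None of the 19 counted genes was 1.5-fold higher or lower, against a background of 9.54% of genes higher and 1.13% lower. Hk2 was 26.1 and 18.5 CPM (0.50, interval -0.04 to 1.08), and Eno3 was 14.6 and 19.7 CPM (-0.43, -0.98 to 0.15). The f/w-labelled library held 25 cycling and 5 non-cycling Pax7 cells, and 1 of its 5 counted genes was higher and 0 lower (background 18.1% and 5.49%).

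Between the libraries the question was whether these genes differ in the myogenic cells of unlike Srsf2 genotype. With 1 library per label there is no test, and the CPM ratio is given with an exact interval that covers counting error only and treats the UMIs of a cell as independent, which they are not. A gene counted if it had at least 200 UMIs in a class over both libraries, and a call was a ratio of at least 1.5-fold. Eno3 was the gene past that fold in all 3 myogenic classes, higher in the f/w-labelled library: 14.5 against 31.3 CPM in Pax7 cells (log2 1.11, interval 0.35 to 1.79), 20.5 against 57.6 CPM in intermediate cells (1.49, 0.91 to 2.02) and 43.4 against 98.6 CPM in myocytes (1.18, 0.76 to 1.58). Each of these calls was lost under an alternative: the ratio was 0.34 in myocytes with halved marker limits and 0.03 in Pax7 cells thinned to 2000 UMIs, and in intermediate cells with a mitochondrial limit of 5% it was 1.88 on too few UMIs to count. Slc16a1 was lower in Pax7 cells, 29.6 against 14.8 CPM (-0.996, -2.13 to -0.06, with 9 UMIs in the f/w-labelled library). This made 1 higher and 1 lower of 19 counted genes in Pax7 cells (background 4.05% and 12.8%), 1 and 0 of 16 in intermediate cells (3.89% and 13.1%) and 1 and 0 of 14 in myocytes (3.66% and 8.08%).

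A few cells held much of the Eno3 count. Of 59 Eno3 UMIs in f/w-labelled myocytes 28 came from 1 cell and 35 from 3 of the 37 cells. Without the 3 cells with the most Eno3 in each library the myocyte levels were 39.0 CPM (f/f-labelled) and 44.3 CPM (f/w-labelled), those of Pax7 cells 13.9 and 20.1 CPM, and those of intermediate cells 18.4 and 14.4 CPM. The cells taken out were chosen by their Eno3, and are 3 of 37 f/w-labelled but 3 of 622 f/f-labelled myocytes. The loss is thus unequal by design, and these values do not show whether a difference between the libraries remains. Pgam2 was higher in f/w-labelled Pax7 cells (3.99 against 13.2 CPM, log2 1.72) and intermediate cells (13.7 against 45.4 CPM, 1.72) on fewer than 200 UMIs, and about level in myocytes (70.8 against 81.9 CPM, 0.21, interval -0.24 to 0.63). Without its top 3 cells Pgam2 was 3.45 and 0 CPM in Pax7 cells and 12.4 and 16.2 CPM in intermediate cells. The value of 0 was fixed in advance, since only 3 f/w-labelled Pax7 cells held a Pgam2 UMI.

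The remaining counted genes were within 1.5-fold. Over all counted genes of the set, Eno3 and Slc16a1 included, the median log2 ratio was 0.21 over the 19 genes in Pax7 cells, 0.30 over 16 in intermediate cells and 0.30 over 14 in myocytes, where the medians of all counted genes were -0.04, -0.04 and -0.01. Intervals lay wholly above 0 for 6, 9 and 8 of these genes and wholly below 0 for 1 (Slc16a1), 0 and 0. Such intervals were not counted over all genes, so these counts are not read as particular to the set. Gapdh was 1698 and 1969 CPM in Pax7 cells (0.21, 0.13 to 0.30) and 2229 and 2862 CPM in myocytes (0.36, 0.29 to 0.43), and Aldoa 389 and 554 CPM (0.51, 0.35 to 0.67) and 541 and 722 CPM (0.42, 0.27 to 0.56).

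Other readouts differed between the libraries in the same cells. Mylpf was 9.33 and 18.1 CPM in Pax7 cells, 141 and 933 CPM in intermediate cells and 873 and 1279 CPM in myocytes, and in cells with 1 to 4 Myog UMIs it was 88.4 and 1510.0 CPM. A few cells held much of the Mylpf count. Among f/w-labelled myogenic cells 3 with at least 100 Mylpf UMIs held 878, and the 94 and 12 below that limit held 84 and 349. In the f/f-labelled library 14 such cells held 2876, and the 2088 and 199 below held 1409 and 5117. Summed over Ttn, Mylpf, Myh3 and Acta1 the intermediate cells stood at 624 and 1580.4 CPM, with 2 of the 4 genes higher in the f/w-labelled library. The immediate early and heat-shock genes Fos, Jun, Egr1, Atf3, Hspa1a and Hspa1b summed to 1475 and 2270.4 CPM in Pax7 cells, 1397 and 2355 CPM in intermediate cells and 1016 and 2046 CPM in myocytes, with 5 of the 6 higher in the f/w-labelled library in each. The part of either in the ratios above was not tested. With myogenic cells split by Mylpf UMIs instead, a split chosen after the data were seen, the Eno3 ratio of all myogenic cells (log2 1.41) was compared within bins. Eno3 was 16.3 and 25.9 CPM at 0 to 9 UMIs (log2 0.67, 0.16 to 1.13), 68.0 and 113 CPM at 10 to 99 (0.73, 0.02 to 1.37) and 356 and 1305 CPM at 100 or more (1.87, 1.36 to 2.38), where the f/w-labelled library has 3 cells. Within the Myog bins the Eno3 ratio was 0.62 (-0.18 to 1.33), 2.28 (1.56 to 2.94), 2.44 (1.94 to 2.91) and 0.25 (-0.38 to 0.82). It lay above the ratio of all myogenic cells in 2 of the 4 bins and below it in the other 2. Myog differed between the libraries outside muscle, at 11.5 and 1.91 CPM in the mesenchymal and 10.3 and 0.937 CPM in the chondrocyte class. A bin of low Myog counts may thus hold unlike cells in the libraries, which was not tested. The 2 higher Eno3 ratios rest on few cells. In the f/w-labelled library 3 cells held 20 of 22 Eno3 UMIs at 1 to 4 Myog UMIs. At 5 to 19 Myog UMIs 3 cells held 39 of 45. Without the 3 top cells of each library the Eno3 shares at 1 to 4 were 5.15% (f/f-labelled) and 1.94% (f/w-labelled). At 5 to 19 they were 7.28% and 6.12%, and the intervals of the libraries overlapped in both bins. The cells taken out were 3 of 14 and 3 of 21 in the f/w-labelled library, but 3 of 442 and 3 of 524 in the f/f-labelled one. The overlap therefore does not show that a difference is absent.

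**Figure D5:**
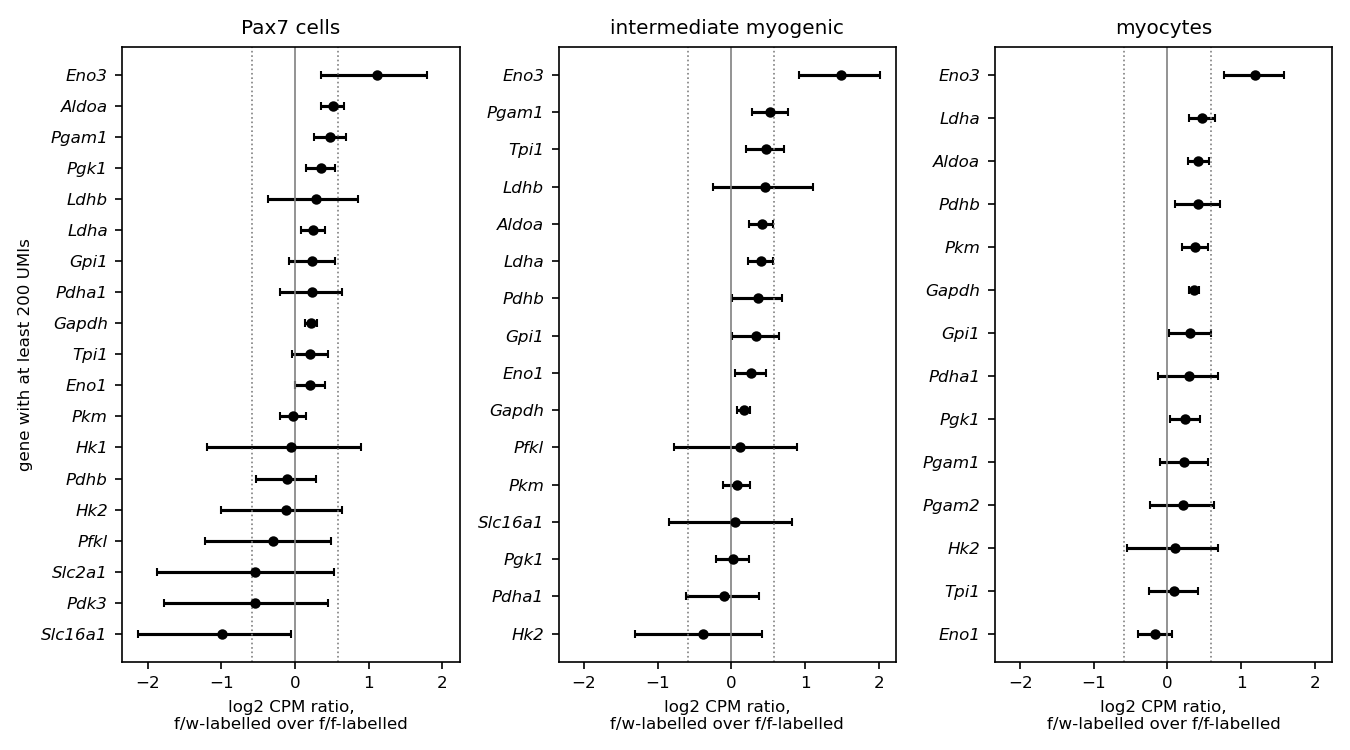
Log2 CPM ratio of the f/w-labelled over the f/f-labelled library (x axis) for each gene with at least 200 UMIs (y axis) in Pax7 cells, intermediate cells and myocytes, with exact 95% intervals of the counts and dotted lines at 1.5-fold. Eno3 is beyond the line in each panel and Slc16a1 beyond it on the other side in Pax7 cells, while the remaining points lie within.

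Outside muscle few genes passed 1.5-fold between the libraries, and smaller shifts went both ways. In the mesenchymal (3501 and 2220 cells) and chondrocyte (2216 and 2225 cells) classes 28 genes counted and 0 passed 1.5-fold (background 2.58% higher and 2.89% lower, and 1.45% and 1.58%). In the mesenchymal class the median log2 ratio was 0.09, with 12 intervals wholly above 0 and 3 below, and in the chondrocyte class it was -0.08, with 2 above and 11 below. The osteoblast class shifted upward about as far as the myogenic classes, with a median of 0.26 over 15 genes and 8 intervals above 0 and 0 below. The epidermal class shifted downward, with a median of -0.17 over 15 genes and 1 interval above and 7 below. Over all counted genes the medians were -0.06 (mesenchymal), -0.04 (chondrocyte), -0.04 (osteoblast) and -0.002 (epidermal). Their intervals were not counted, so the interval counts have no background. In the immune class Pfkl was lower in the f/w-labelled library (33.3 against 19.9 CPM) and Ldhb higher (21.4 against 39.96 CPM), 1 each of 19 counted (background 4.22% higher and 12.2% lower). In the epidermal class Slc16a1 was lower (90.5 against 54.4 CPM), 1 of 15 (background 4.42% higher and 2.43% lower). Gapdh was the single gene counted in the erythroid class and was lower (447 against 235 CPM; background 2.6% higher and 70.3% lower). In the osteoblast (15 counted, background 0.738% and 2.68%), pericyte (12, 1.99% and 3.18%), endothelial (20, 1.17% and 3.27%), Schwann (11, 1.83% and 2.28%) and neuron (22, 1.48% and 3.84%) classes 0 genes passed.

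Further genes of the pathway were read from a second list. Of 30 further genes of glycogen, pyruvate and shuttle metabolism 23 were tested from Pax7 cells to myocytes, and 4 were called higher and 3 lower (background 13.1% and 12.4%), with a median log2 difference of 0.31. Higher were Pygm, the muscle glycogen phosphorylase (1.78 to 8.03 and 1.65 to 11.7 CPM, 2.47 ± 0.38), Gys1, the muscle glycogen synthase (1.73 ± 0.36), Mpc1, a subunit of the mitochondrial pyruvate carrier (0.71 ± 0.17), and Pcx, pyruvate carboxylase (2.94 ± 0.38), which rose from 28 to 122 UMIs in the f/f-labelled library and had 3 UMIs in each class of the f/w-labelled one. Lower were Pygb, the brain form of phosphorylase (-1.64 ± 0.36), Pdp2, a phosphatase that switches pyruvate dehydrogenase on (-1.90 ± 0.50), and Pgm1. Mpc1 and Pgm1, with smaller changes, and Slc2a4 were named after their values were seen. Slc2a4, the insulin-responsive glucose carrier of adult muscle, was 1.90 and 3.79 CPM and 1.65 and 3.34 CPM and did not pass (1.23 ± 0.51, FDR 0.0753).

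Hypoxia-regulated genes outside the set were read as a list of 15, of which 14 were tested. From Pax7 cells to myocytes 1 was called higher, Bnip3, a mitophagy receptor (9.94 to 31.0 and 14.8 to 38.4 CPM, 1.88 ± 0.26), and 3 lower, Vegfa, Egln1 and Ero1l. The background over all genes was 13.1% higher and 12.4% lower, and the median log2 difference was -0.46 against 0.01 for all genes. Against the mean of the other classes 7 of the 14 were higher and 2 lower in the chondrocyte class (25.4% and 12.5% of all genes). In the osteoblast class 5 were higher and 0 lower (17% and 6.84%), in the epidermal class 6 and 0 (18.7% and 9.22%) and in the mesenchymal class 4 and 0 (25.9% and 11.4%). Neurons had 4 and 4 (29.6% and 19.8%), the immune class 4 and 5 (32.7% and 18.9%), the endothelial class 6 and 5 (23.6% and 11.8%), the Schwann class 3 and 1 (14.5% and 9.55%), the pericyte class 2 and 1 (13% and 3.55%) and the erythroid class 0 and 0 (2.47% and 1.86%). Pax7 cells had 0 higher and 6 lower (16% and 15.8%), intermediate cells 0 and 7 (18.1% and 15.9%) and myocytes 1 and 7 (23.7% and 20.5%). Beside the calls of the 31 tested genes of the glycolysis set, the chondrocyte (19 higher and 3 lower there) and osteoblast (13 and 0) classes leaned the same way. The mesenchymal (3 and 8 there), Schwann (3 and 11) and immune (17 and 2) classes did not. The mesenchymal count of 4 of 14 here was near its background. A link between the lists was not tested.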

How the data were processed

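Single-cell libraries of tdT+ E14 embryo cells were made with the 10x 3′ v3.1 chemistry, 1 for each genotype label. The authors mapped reads to mm10 without introns and counted UMIs per gene; the matrix header names Cell Ranger 5.0.0, and the submitters' processing notes name Cell Ranger 3.1.0, STAR and Seurat 3.1.1. The deposited values are raw counts of UMIs for 32285 genes and 27766 barcodes, after the libraries were aggregated with reads down-sampled to an equal depth. Before that, the per-sample summaries list 571426356 reads (39.5% saturation) for the f/f-labelled and 575393483 (45.9%) for the f/w-labelled library. Barcode suffixes were tied to libraries by the cell numbers in those summaries (15268 and 12498).

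Cells at more than 10% mitochondrial UMIs were dropped, as were those whose log10 number of UMIs or genes lay over 2 SD from the library average, which left 151555303 and 122938843 UMIs. A cell took the class whose marker UMI limit it reached, the mesenchymal limit being read only in cells that reached no other; cells of more than 1 class, doublets among them, were left out, and no other doublet caller was run. Class sums were tested with edgeR 4.0.16 in R 4.3.3 (TMM, filterByExpr, quasi-likelihood, Benjamini-Hochberg over 14088 genes), with at least 20 cells in each sum. Cells are not replicates, so the spread is that of class sums between libraries of unlike label, which may be technical. SE is the absolute log2 difference over the root of F. On data simulated from the myocyte and Pax7 comparison the fit was tested for recovery of known changes. Ratios and shares have exact 95% intervals. DESeq2 1.42.0, other scalings, limits and thinned cells were the alternatives. Python 3.11.15, NumPy 2.4.6, SciPy 1.17.1, pandas 2.3.3 and matplotlib 3.10.9 were used. Coordinates are of GENCODE vM21 (32158 of the identifiers, 99.6%, were found). A row of Aldoa with 9 UMIs was left apart from the one used. All 32 genes are described; further genes were named by the size of their change from Pax7 cells to myocytes. The gene set, the lists and the limits were chosen with earlier results of these data known.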

Additional observations from a re-analysis of the deposited data

Results flagged for a closer look

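For 6 genes the ratio of myocytes over Pax7 cells had opposite signs in the libraries, and the difference between the libraries was not tested in any of them. Pfkm, the muscle phosphofructokinase, had a log2 ratio of -1.24 in the f/f-labelled and 2.02 in the f/w-labelled library, the second on 4 against 1 UMIs. Slc16a3, the lactate exporter, had -1.42 and 0.76, the second on 5 against 3 UMIs. The other 4 were close to level: Pkm at -0.34 and 0.062, Eno1 at 0.20 and -0.17, Pgk1 at 0.057 and -0.053, and Pdk2 at -0.11 and 0.021. None of the 6 was called in the edgeR fit of both libraries.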

How the results depend on the processing

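For the 14 genes called from Pax7 cells to myocytes, 186 of 194 alternatives kept the direction and the side of the FDR limit, 8 lost the call and 0 reversed. Library totals alone, an alternative chosen after the data were seen, gave 4 genes of the set higher and 1192 genes higher and 2629 lower over all, in place of 1842 and 1746. Without the filter on low counts all genes split into 1442 higher and 2154 lower. Thinning cells to 2000 UMIs gave 4 genes of the set lower, 792 and 735 genes over all, and 71 higher and 33 lower calls over the 13 classes in place of 109 and 96. Leaving out the erythroid sums, also chosen later, gave 111 and 109. No count over all genes is given beside these totals over the classes, so the changes are not read as particular to the set.

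Between the libraries, genes of the set lower in Pax7 cells were 0 at a call fold of 2 and in thinned cells, 3 with doubled marker limits and 2 with a mitochondrial limit of 5%, in place of 1. Genes higher were 0 in thinned Pax7 cells, 0 in myocytes with halved limits, and 0 (mitochondrial limit of 5%) and 2 (thinned, with 1 lower) in intermediate cells. The shares of all genes under these alternatives are not given here, so the counts describe the set alone. The Pgam2 ratio turned to -0.28 in Pax7 cells and -0.085 in myocytes with halved limits, and to -0.15 in myocytes with the limit of 5%. Eno3 in myocytes stood at 0.34 with halved limits and 1.68 with the limit of 5%, and in thinned Pax7 cells at 0.03. The Eno3 share of myocytes was 11.3% with the limit of 5%, and 11.8% to 25.4% in single libraries. Without the 3 cells of each library with the most UMIs of the isoform, chosen after the data were seen, the myocyte shares over both libraries were 10.9% for Eno3 and 33.9% for Pgam2. The cause of these changes was not tested.

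No paired analysis was possible because each label has 1 library and shares no numbered replicates with the other. Leaving out a library leaves no residual degrees of freedom, so single libraries give values and no test. The 109 myogenic cells of the f/w-labelled library limit what its ratios can show. Intervals cover counting error only.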
